A study of Mus musculus with 12 samples.

Results

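The wide shared CREB sites of mouse liver are binding sites that were called in both fasted and re-fed animals but whose 2 calls did not sit on the same spot. CREB ChIP-seq was performed on whole livers of 8 to 12 week-old male C57BL/6J mice with an antibody to CREB-1. The 5 fasted mice had been without food for 24 h and were harvested at zeitgeber time 3, and the 5 re-fed mice had the same 24 h fast followed by 2 h with food and were harvested at zeitgeber time 5, so feeding and the later hour cannot be told apart. Each of the 10 livers gave 1 library of whole tissue, with all its cell types, and the deposited lists analysed here carry values of the pool of 5 livers and none per animal, so no value below has a spread between animals. Together the final lists hold 7547 sites, 4645 of them found in the fasted and the re-fed list alike. The wide shared sites were selected on the calls themselves, by a height under 3 RPM (reads per 1e6 reads of the pool) and an interval of at least 150 bp, measured as end minus start. They number 495, which is 11.9% of the 4149 shared sites under that height, and the other 3654 are the narrower shared sites used for comparison below.

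CREB is a basic leucine zipper factor that binds the cAMP response element (CRE) as a dimer. The palindromic CRE offers both partners a matching arm, while many promoters carry only 1 arm, the CRE core, often near a transcription start site (TSS). In liver, glucagon during fasting raises cAMP and protein kinase A phosphorylates CREB, which then recruits coactivators to genes of glucose production such as Pck1 and Ppargc1a.

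The width of a shared site measured how far apart the conditions' calls lay. All 2190 sites called only in fasted livers spanned 110 bp and all 712 sites called only in re-fed livers spanned 108 bp. A shared interval was the union of one such call from each condition, so its width minus 109 gave the distance between the centres of the calls (intervals of 110 bp correspond to 1 bp or less). The direction of the shift is lost in the merging. Among the wide shared sites this distance ran from 41 bp to 109 bp with a median of 54 bp and quartiles of 46 and 67 bp. Among the narrower shared sites it ran from 1 to 40 bp with a median of 11 bp, and among the 496 shared sites of 3 RPM or more the median was 6 bp. These distances are what the rule selected and are given as a description only.

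A few promoters are shown because they let the position of the CRE core be read against the calls. Most of them were chosen after their values had been seen. The following stretches lie upstream of the TSS, read 5′ to 3′ on the gene's strand (RefSeq promoters, GRCm38.p6), and capitals mark the CRE core (TGACG, or CGTCA where it lies on the opposite strand) and CCAAT (or ATTGG). Ssr3 encodes a subunit of the translocon-associated complex of the endoplasmic reticulum (ER), Sec24d a cargo adaptor of COPII vesicles, Stx6 a syntaxin of the trans-Golgi network, Stk25 a Golgi-associated kinase, Uap1 an enzyme that makes UDP-N-acetylglucosamine, and Zmynd19 a zinc finger protein.
Ssr3, chr3:65392584-65392713, minus strand: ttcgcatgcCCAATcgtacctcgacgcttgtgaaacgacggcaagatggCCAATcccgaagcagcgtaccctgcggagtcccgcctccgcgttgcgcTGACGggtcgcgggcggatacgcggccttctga
Sec24d, chr3:123267386-123267495, plus strand: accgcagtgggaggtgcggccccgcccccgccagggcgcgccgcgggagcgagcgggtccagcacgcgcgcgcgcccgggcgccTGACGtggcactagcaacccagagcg
Stx6, chr1:155158533-155158662, plus strand: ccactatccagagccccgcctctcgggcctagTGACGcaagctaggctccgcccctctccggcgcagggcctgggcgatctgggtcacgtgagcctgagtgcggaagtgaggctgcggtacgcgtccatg
Stk25, chr1:93635878-93635967, minus strand: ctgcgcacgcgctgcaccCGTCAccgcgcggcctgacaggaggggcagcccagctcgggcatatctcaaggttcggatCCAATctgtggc
Uap1, chr1:170174965-170175064, minus strand: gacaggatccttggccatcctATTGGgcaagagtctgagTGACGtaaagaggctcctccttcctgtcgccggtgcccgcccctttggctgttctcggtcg
Zmynd19, chr2:24949547-24949726, plus strand: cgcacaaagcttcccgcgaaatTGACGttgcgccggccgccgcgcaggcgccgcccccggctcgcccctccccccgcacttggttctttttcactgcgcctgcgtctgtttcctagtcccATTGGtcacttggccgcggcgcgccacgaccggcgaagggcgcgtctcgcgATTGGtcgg

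In most of these chosen promoters the CRE core sat at 1 call and the other call lay well away from it. They are examples and do not show how often this holds. At other wide sites the nearest core lay far from both calls, as at Surf6 (97.5 bp from the nearer call) and Arfgap2 (153.5 bp). At Ssr3 the calls were centred at -127.5 and -60.5 bp from the TSS, and the only CRE core of the 300 bp promoter began at -63. At Sec24d the calls were centred at -84.5 and -20.5 bp and the core began at -26. At Stx6 they were centred at -139.5 and -69.5 bp and the core began at -138, here at the call farther from the TSS. At Stk25 the calls lay at -221.5 and -172.5 bp, and the core, on the opposite strand, began at -222. At Zmynd19, one of the widest, the calls lay at -215.5 and -115.5 bp, with a core beginning at -208 near the first and an inverted CCAAT beginning at -110 near the second. At Uap1 the calls lay at -65.5 and -24.5 bp and the core nearest to them began at -61. Call centres were placed on mm8 gene models and motifs on GRCm38.p6 promoters, each counted from its own TSS, so a TSS that moved between annotations shifts one against the other.

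The same measurement was made for every wide shared site on chromosomes 1 to 3 whose midpoint lay within 200 bp of a TSS and whose gene had a single listed promoter holding a CRE core, 24 sites in all. It was chosen after the values of these sites had been seen. The nearest core lay at a median of 36.8 bp from the midpoint of the wide intervals (quartiles 25.2 and 49.5 bp), against 13.5 bp for 185 narrower and 9.5 bp for 43 strong shared sites. The rule puts every call centre of a wide site at least 20.5 bp from the midpoint, so a core at a call must lie away from the midpoint and this contrast is no result. Measured instead to the nearer of the call centres, the core lay at a median of 10.5 bp in wide sites, with 16 of 24 within 20 bp (66.7%, 95% Wilson interval 46.7 to 82.0%), and at 9.5 bp in narrower sites, with 136 of 185 within 20 bp (73.5%, 66.7 to 79.3%). Wide sites have call centres farther apart and so more room for a match by position alone. For CCAAT the corresponding medians to the nearer call were 19.5 bp in 25 wide and 32 bp in 110 narrower sites, and for the GC box (GGGCGG) they were 22 bp in 34 wide and 28 bp in 181 narrower sites.

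**Figure D1:**
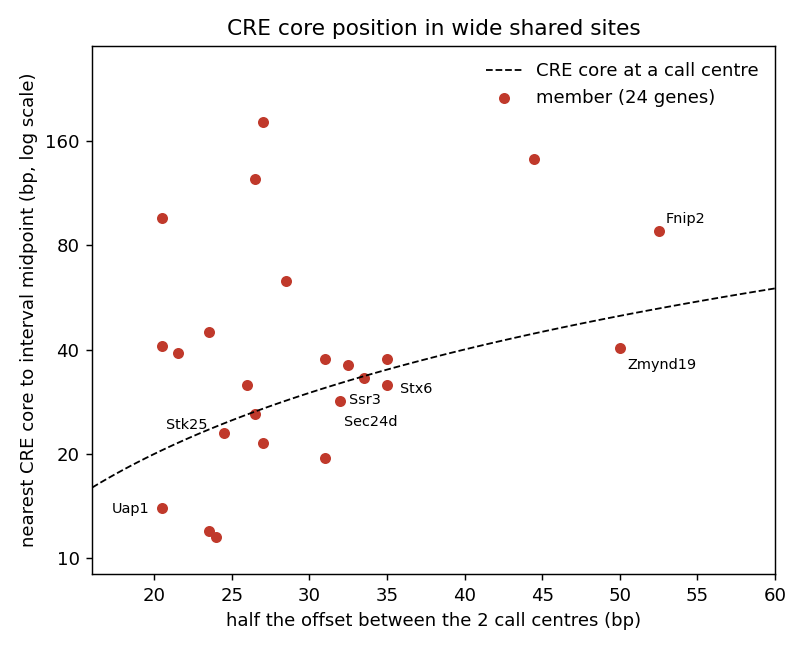
Each point is a wide shared site within 200 bp of a TSS whose promoter holds a CRE core (24 sites). The x axis gives the distance from the interval's midpoint to either call centre and the y axis, on a log scale, the distance from the midpoint to the nearest core. The dashed curve marks a core exactly at a call centre, and 16 of the 24 points lie within 20 bp of it.

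Counts of shared sites fell with the distance between calls up to the limit of merging, in uneven steps. Over all shared sites, whatever their height, 2125 had calls 1 to 10 bp apart, 1113 were 11 to 20 bp apart, 210 were 41 to 50 bp apart and 42 were 71 to 80 bp apart. A further 23 were 81 to 90 bp apart, 22 were 91 to 100 bp apart and 8 were 101 to 109 bp apart. Beyond 109 bp calls no longer overlapped and were listed separately, and 14 re-fed-only sites had a fasted-only site at 110 to 119.5 bp, 6 at 120 to 129.5 bp and 5 at 130 to 139.5 bp. Up to 218 bp there were 45 such pairs, each listed as a fasted-only and a re-fed-only site. They count only sites called in a single condition, so they do not continue the counts of shared sites. Within a single list, centres were never closer than 217 bp (fasted) or 266 bp (re-fed).

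**Figure D2:**
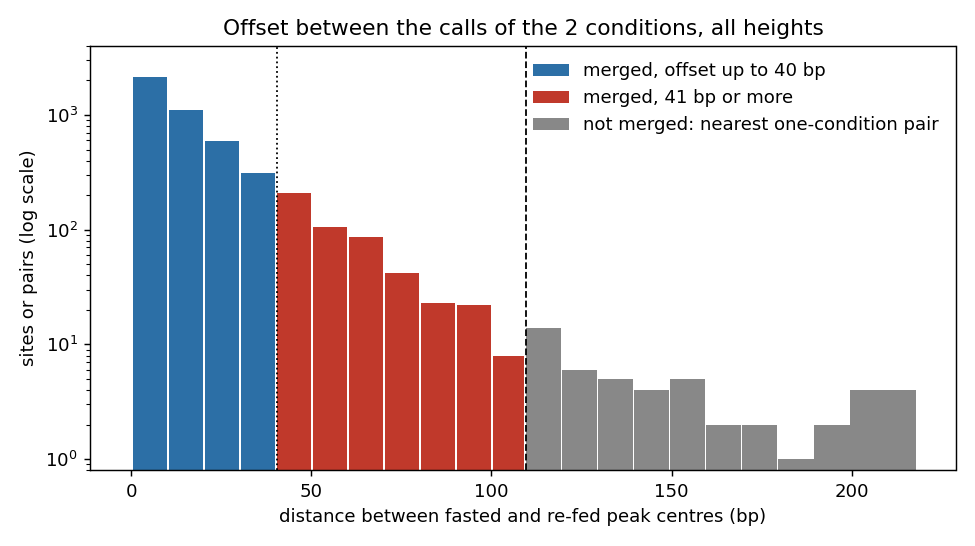
The bars count shared sites by the distance between their fasted and re-fed call centres (blue up to 40 bp, red from 41 bp), and grey bars count pairs of a re-fed-only site with its nearest fasted-only site, on a log axis. Counts fall from 2125 in the first bar to 8 in the last red one, and 14 separate pairs follow directly beyond the dashed line, where calls cease to overlap. The last red bar covers 9 bp and the last grey bar 19 bp.

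The heights are given as a description, since the rule used both width and height. The deposited height of every shared site is that of the fasted pool, and its steps correspond to single reads of a pool of 42363292 reads (1 read is 0.0236 RPM). The wide shared sites had a median height of 0.637 RPM, or 27 reads, with quartiles of 0.519 and 0.826 RPM and a range of 0.354 to 2.69 RPM. The narrower shared sites had a median of 0.968 RPM (quartiles 0.661 and 1.51 RPM), the sites called only in fasted livers 0.567 RPM and those called only in re-fed livers 0.401 RPM, again in the fasted pool. The share of shared sites that were wide fell from band to band, from 105 of 419 below 0.5 RPM (25.1%, 95% Wilson interval 21.1 to 29.4%) through 89 of 458 at 0.6 to 0.7 RPM (19.4%, 16.1 to 23.3%) and 65 of 634 at 0.8 to 1 RPM (10.3%, 8.13 to 12.9%) to 19 of 943 at 1.5 to 3 RPM (2.01%, 1.29 to 3.13%). These intervals cover counting error only. With the limit set at 1 RPM the medians of wide and narrower sites were 0.614 and 0.685 RPM.

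**Figure D3:**
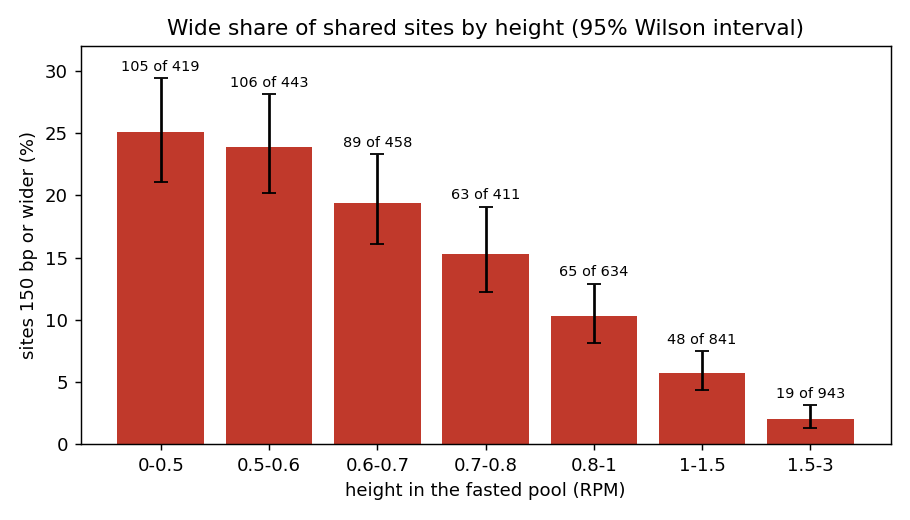
Bars give the share of shared sites with an interval of 150 bp or more in each band of fasted-pool height, with 95% Wilson intervals and the counts above them. The share falls from 25.1% below 0.5 RPM to 2.01% at 1.5 to 3 RPM.

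Spearman's rho between width and height was -0.06 over the 495 wide sites and -0.30 over all 4149 shared sites under 3 RPM. Both come from the same pools and the values the rule used, and the width limit narrows the range of the first, so they are not compared. The median height was 0.661 RPM in the 209 sites of 150 to 159 bp, 0.626 RPM in the 106 sites of 160 to 169 bp, 0.637 RPM in the 85 sites of 170 to 179 bp, 0.661 RPM in the 65 sites of 180 to 199 bp and 0.602 RPM in the 30 sites of 200 to 218 bp, with no steady order. At the width limit, the median height was 0.59 RPM in the 30 sites of exactly 150 bp and 0.696 RPM in the 26 sites of 151 bp, and just outside it 0.708 RPM in the 19 sites of 149 bp and 0.72 RPM in the 30 sites of 148 bp, with no regular step. At the height limit, the highest wide sites were chr17:36559746-36559924 (mm8) with 2.69 RPM and chr16:22181196-22181357 with 2.62 RPM. Just outside it lay 2 sites of the same width class, chr11:93811972-93812149 with 3.07 RPM and chr10:61075548-61075698 with 3.92 RPM.

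The number in each peak's name gives its place in an order of all sites, with 1 the first. In the 1525 rows of the study's height table read here, this order followed the height averaged over both pools, with 0 of 1524 neighbouring pairs out of order. At 0.7 to 0.8 RPM in the fasted pool the wide sites had a median number of 3575 and the narrower sites 3290, at 0.8 to 1 RPM 2826 and 2715, and at 1.5 to 3 RPM 1224 and 978. The wide sites came later in each of the 7 height bands, by the least at 0.6 to 0.7 RPM, where the medians were 3972 and 3942. Fasted heights may still differ between the classes within a band, and the part of this in the later numbers was not tested. Over all bands the median of the name number minus the place by fasted height was -170 for wide and -49.5 for narrower sites, so by this measure, unlike within the bands, the wide sites came earlier. The classes differ in height, with a median place by fasted height of 4314 for wide and 2470 for narrower sites, and the sites called in a single condition, most of them weak in the fasted pool, moved both ways, with a median of 560 for fasted-only and -625 for re-fed-only sites.

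A further site nearby was found at a similar share of wide and narrower sites. Another listed site lay within 1000 bp of 59 wide sites (11.9%, 9.35 to 15.1%), of 427 narrower sites (11.7%, 10.7 to 12.8%) and of 13.7% of all 7547 sites. The nearest neighbour was a fasted-only site in 25 cases, a narrower shared site in 24, a re-fed-only site in 5, another wide site in 4 and a strong shared site in 1. The 4 wide sites with a wide neighbour formed 2 pairs, both on chromosome 12, with centres 422.5 and 450.5 bp apart. Per chromosome, the wide share of shared sites under 3 RPM ran from 7.48% (4.23 to 12.9%) on chromosome 19 to 15.0% (11.0 to 20.2%) on chromosome 1, leaving aside chromosome Y with 5 sites, and these intervals overlap.

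How the share of wide sites near a TSS compared with that of all sites varied with the distance allowed. On chromosomes 1 to 3, where the copy of the study's gene list is whole, 64 of 95 wide sites had their midpoint within 200 bp of a TSS (67.4%, 57.4 to 76.0%), against 374 of 620 narrower sites (60.3%, 56.4 to 64.1%), 70 of 82 strong shared sites (85.4%, 76.1 to 91.4%) and 58.7% of all sites there. Within 100 bp the order of wide and narrower sites was the opposite, at 46.3% (36.6 to 56.3%) and 49.5% (45.6 to 53.4%), with 46.7% of all sites, and within 1000 bp the shares were 82.1% (73.2 to 88.5%) and 72.1% (68.4 to 75.5%), with 71.7% (69.2 to 74.1%) of all sites. No gene was listed at 8 of 95 wide sites (8.42%, 4.33 to 15.7%), 11.0% of narrower and 12.0% of all sites there. Among sites within 1000 bp of a TSS, the midpoint lay at a median of -60.8 bp in wide sites (quartiles -142 and -18.6 bp) and at -42 bp in narrower sites (-95.5 and -9.25 bp), and it was upstream in 65 of 78 wide sites (83.3%, 73.5 to 90.0%) in 79.4% (75.4 to 82.9%) of narrower ones and in 74.1% (71.2 to 76.8%) of all sites. The upstream share was 66.0% in fasted-only and 57.1% in re-fed-only sites. TSSs of both strands lay within 1000 bp of 9 of 95 wide sites (9.47%, 5.06 to 17.0%), 10.3% of narrower sites, 35.4% (25.9 to 46.2%) of strong shared sites and 11.9% (10.3 to 13.8%) of all sites.

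The CRE palindrome was missing from the promoters under wide sites, under fasted-only sites and under the weaker of the narrower sites, but it is rare in all coding genes too. The share of wide promoters with a CRE core lay between those of narrower shared sites and of sites called in a single condition, a description with no test. Promoters ran from 250 bp before to 50 bp after the TSS (RefSeq, GRCm38.p6) and were searched on both strands. The 64 wide sites near a TSS gave 58 coding genes with a listed promoter. The palindrome TGACGTCA was in 0 of these 58 (upper bound of the 95% Wilson interval 6.21%), in 20 of 317 promoters of narrower sites (6.31%, 4.12 to 9.54%), in 20 of 59 of strong shared sites (33.9%, 23.1 to 46.6%) and in 2.34% of all 17492 coding genes, a share within the bound for wide sites. It was also in 0 of 168 promoters of fasted-only sites (upper bound 2.24%) and in 0 of 69 of narrower sites under 0.7 RPM (upper bound 5.27%), while 2 of 45 promoters of re-fed-only sites held it. The core TGACG, which the palindrome contains, was in 28 of 58 wide promoters (48.3%, 35.9 to 60.8%), 210 of 317 narrower (66.2%, 60.9 to 71.2%) and 50 of 59 strong ones (84.7%, 73.5 to 91.8%), and in 23.8% of all coding genes. Promoters of fasted-only sites held it in 26.8% (20.7 to 33.9%) of 168 and those of re-fed-only sites in 31.1% (19.5 to 45.7%) of 45. A second core was found in 3 of 58 wide promoters (5.17%, 1.77 to 14.1%) and in 70 of 317 narrower ones (22.1%, 17.9 to 27.0%), but the wide share was near the 5.36% of fasted-only sites, the 8.70% of narrower sites under 0.7 RPM and the 6.43% of all coding genes.

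Height moved with these shares. Below 0.7 RPM the core was in 10 of 34 wide promoters (29.4%, 16.8 to 46.2%) and 31 of 69 narrower ones (44.9%, 33.8 to 56.6%), and at 0.7 RPM or more in 18 of 24 wide (75.0%, 55.1 to 88.0%) and 179 of 248 narrower ones (72.2%, 66.3 to 77.4%), so that at the upper heights the shares of wide and narrower sites lay close together. CCAAT, the element of the factor NF-Y, was in 29 of 58 wide promoters (50.0%, 37.5 to 62.5%), 126 of 317 narrower ones (39.7%, 34.5 to 45.2%) and 39.0% of all coding genes. The GC box, bound by Sp1 and its relatives, was in 72.4% (59.8 to 82.2%) of wide, 67.2% (61.8 to 72.1%) of narrower and 46.3% of all promoters, and the ETS motif CCGGAAG in 17.2% (9.64 to 28.9%), 22.1% (17.9 to 27.0%) and 11.9%. The GC content was 63% under wide and 61.9% under narrower sites, against 55.9% over all coding genes. A match gives letters in a window and not a bound site.

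**Figure D4:**
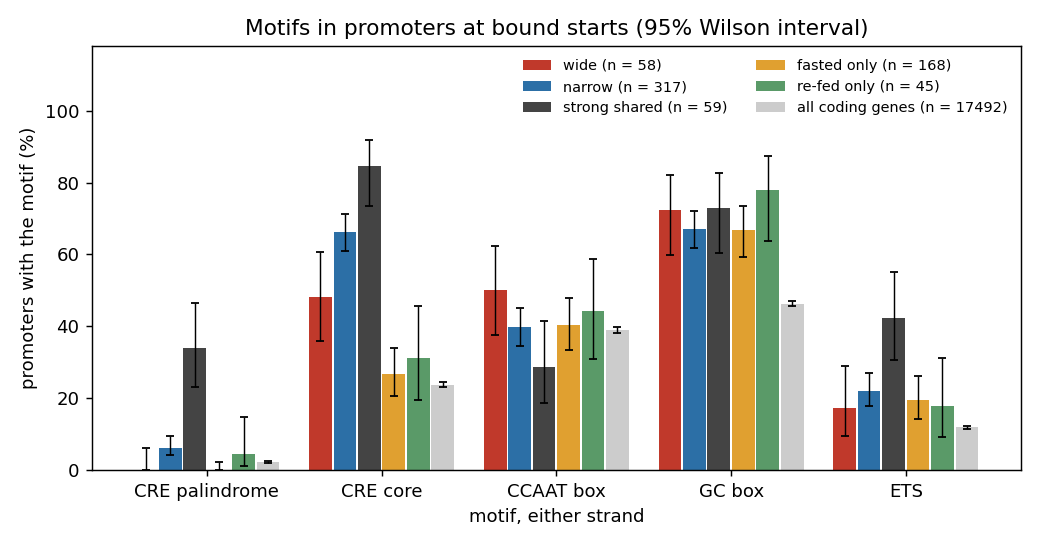
Bars give the share of promoters with each motif for genes whose TSS lies within 200 bp of a site on chromosomes 1 to 3, by class of site, and for all 17492 coding genes, with 95% Wilson intervals. The wide (red) and fasted-only (orange) classes have no CRE palindrome, and the wide class holds the CRE core in 48.3% of its promoters between the 66.2% of narrower and the 26.8% of fasted-only sites, and has CCAAT in 50.0%.

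Genes that the study found higher (induced) or lower (repressed) in fasted than in re-fed livers by microarray made up slightly larger shares of wide than of narrower sites, within counting error. The study's assignment of sites to genes reached 10 kb before the TSS and covered introns and exons. Of the 495 wide sites, 25 were listed at induced genes (5.05%, 3.44 to 7.35%), against 137 narrower sites (3.75%, 3.18 to 4.42%) and 3.80% of all sites. At repressed genes 28 were listed (5.66%, 3.94 to 8.05%), against 150 narrower sites (4.11%, 3.51 to 4.80%) and 4.28% of all sites. All intervals overlap the backgrounds, and the gene lists come from mice of the same study. Where a gene lies outside chromosomes 1 to 3, the distance from its site to the TSS is not given here.

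**Figure D5:**
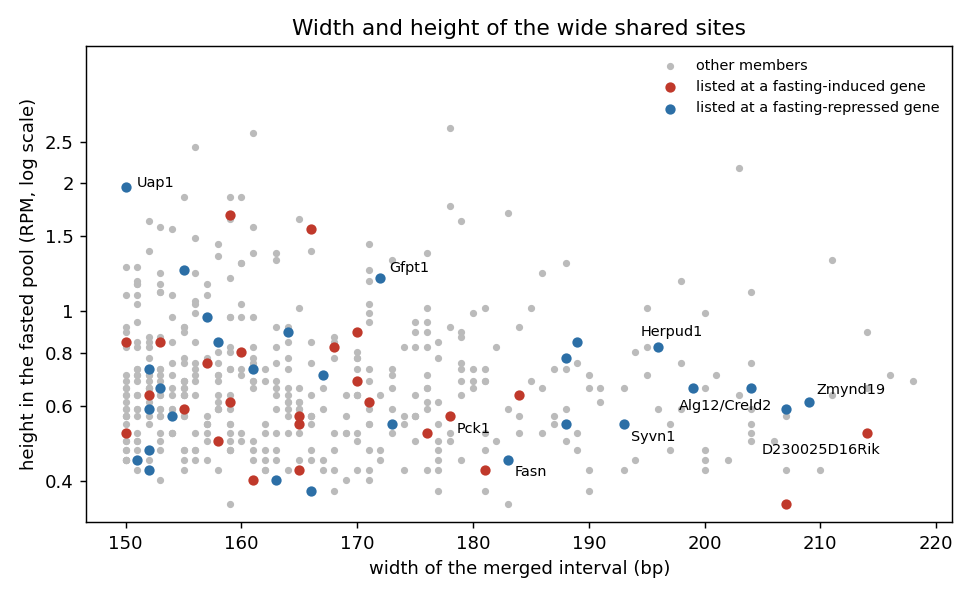
Each point is 1 of the 495 wide shared sites, by interval width in bp and height in the fasted pool in RPM on a log scale. Sites at fasting-induced genes (red) and fasting-repressed genes (blue) are spread over the range of widths, with repressed genes such as Zmynd19 (209 bp) and Alg12/Creld2 (199 bp) among the widest, and D230025D16Rik (214 bp) the widest at an induced gene.

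Pck1, the rate-limiting enzyme of gluconeogenesis, had 3 sites, and the wide one (178 bp, 0.567 RPM, 24 reads, chr2:172789781-172789959) was the most distal, with its midpoint at -6141 bp from the TSS. The other Pck1 sites were narrower shared sites at -4877.5 bp (119 bp wide, 0.708 RPM) and at -95 bp (110 bp wide, 0.968 RPM), so at this gene the calls coincided at the promoter and differed by 69 bp far upstream. Ppargc1a, the coactivator of the gluconeogenic program, had a wide site of 165 bp with 0.567 RPM (chr5:51842169-51842334) and a fasted-only site with 0.991 RPM. These were 2 of the 23 sites listed here at 12 genes of the gluconeogenic and cAMP response list (19 genes), or 0.404% of wide sites (0.111 to 1.46%) against 0.301% of narrower (0.168 to 0.538%) and 0.305% of all sites. Outside chromosomes 1 to 3 a bound gene of this or another list may be missed unless it is induced or repressed. The widest sites at induced genes were those of D230025D16Rik (214 bp, 0.519 RPM), of Ccdc28a (207 bp, 0.354 RPM), of Cirbp, a cold-inducible RNA-binding protein (184 bp, 0.637 RPM), and of Gfra1, a GDNF family co-receptor (181 bp, 0.425 RPM). After Pck1 followed Clmn (176 bp, 0.519 RPM), Zc3h6 (171 bp, 0.614 RPM, midpoint at -144.5 bp), the choline kinase gene Chkb (170 bp, 0.897 RPM), the kinase gene Mknk2 (170 bp, 0.685 RPM) and the amino acid transporter gene Slc38a4 (168 bp, 0.826 RPM). For motifs, the promoter of each such gene was searched whether or not its site lay there, so the shares do not describe sequence under the sites. None of the 24 induced genes with a wide site and a listed promoter had the palindrome (upper bound 13.8%), and 9 had a core (37.5%, 21.2 to 57.3%). Of 99 induced genes with a narrower site, 6 had the palindrome (6.06%, 2.81 to 12.6%) and 48 a core (48.5%, 38.9 to 58.2%). The shares of all coding genes, 2.34% and 23.8%, lie within the intervals for induced genes with a wide site.

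Among repressed genes, Creld2, an ER-resident protein with EGF-like repeats, and Alg12, a mannosyltransferase of N-glycan assembly, shared a site of 199 bp (chr15:88647189-88647388, 0.661 RPM, 28 reads). Herpud1, a component of ER-associated degradation, had a wide site of 196 bp (chr8:97275430-97275626, 0.826 RPM) besides a pair of fasted-only sites with 0.472 and 0.661 RPM. Syvn1, the ubiquitin ligase of the same pathway, had a wide site of 193 bp (chr19:6046411-6046604, 0.543 RPM) and a narrower site of 114 bp with 1.27 RPM. Pdia6, a protein disulfide isomerase, had a site of 153 bp with 0.661 RPM. The sites of Creld2, Herpud1, Syvn1 and Pdia6 were 4 of the 24 listed here at 20 genes of the ER stress and chaperone list (27 genes), against 12 narrower ones, or 0.808% of wide (0.315 to 2.06%) and 0.328% of narrower sites (0.188 to 0.573%), with overlapping intervals, and 0.318% of all sites.

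The other repressed genes with the widest sites were Zmynd19 (209 bp, 0.614 RPM, midpoint at -165.5 bp), Actb, cytoplasmic actin (207 bp, 0.59 RPM), Hspa13, an Hsp70 family member of microsomes (204 bp, 0.661 RPM), Gm16516 (189 bp, 0.85 RPM), 9630033F20Rik (188 bp, 0.543 RPM) and Nip7, a factor of ribosome assembly (188 bp, 0.779 RPM), which had another wide site of 166 bp with 0.378 RPM. Fasn, fatty acid synthase, followed with 183 bp and 0.449 RPM, beside a narrower site of 121 bp with 0.685 RPM. Its wide site was 1 of the 14 sites listed here at genes of the lipid list (15 genes), or 0.202% of wide sites (0.0357 to 1.14%), beside 0.192% of narrower and 0.186% of all sites. The repressed genes are ordered by width, a value the rule used. Uap1, at the width limit with 150 bp, was the fifth highest of all wide sites with 1.96 RPM (83 reads).

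Promoters of repressed genes were also searched for the ER stress response element (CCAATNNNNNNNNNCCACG), through which NF-Y and ATF6 act together, after the genes had been seen. Here too a gene's promoter was searched whether or not its site lay there. The element was in the promoter of 4 of 23 repressed genes with a wide site (17.4%, 6.98 to 37.1%), namely Alg12, Creld2, Pdia6 and Syvn1, of which the first 2 are bound at a single shared site. It was in 2 of 120 repressed genes with a narrower site (1.67%, 0.458 to 5.87%), Hspa5 and again Syvn1, in 1 of 73 with a fasted-only site, Hsp90b1, and in 1 of 23 with a re-fed-only site, Calr. It was in 0 of 24 induced genes with a wide site (upper bound 13.8%). Among the promoters at bound TSSs of chromosomes 1 to 3, not picked by regulation, it was in 0 of 58 for wide sites (upper bound 6.21%) and 1 of 317 for narrower ones, and over all coding genes in 28 of 17492 (0.160%). Because the element was sought after the genes had been seen, its counts are a description and no support for a difference. The interval for the 23 genes also counts Alg12 and Creld2, with their single site, as separate. CCAAT by itself was in 17 of the 23 repressed genes with a wide site (73.9%, 53.5 to 87.5%), in 66 of 120 with a narrower site (55.0%, 46.1 to 63.6%) and in 39.0% of all coding genes. The palindromic CRE was in 0 of the 23 (upper bound 14.3%), in 4 of the 120 (3.33%, 1.30 to 8.26%) and in 2.34% of all coding genes, which lie within that bound. A CRE core was in 9 of the 23 (39.1%, 22.2 to 59.2%), in 64 of the 120 (53.3%) and in 23.8% of all coding genes. The elements stand upstream of the TSS, printed with CCAAT (or ATTGG) and the CCACG of the ER stress response element (or CGTGG) in capitals (RefSeq, GRCm38.p6, all plus strand).
Creld2, chr15:88819496-88819585: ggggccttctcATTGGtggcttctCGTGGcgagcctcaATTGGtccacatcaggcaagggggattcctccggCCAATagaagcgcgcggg
Syvn1, chr19:6046486-6046575: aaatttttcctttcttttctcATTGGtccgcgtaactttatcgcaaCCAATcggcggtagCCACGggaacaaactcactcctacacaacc
Pdia6, chr12:17266439-17266528: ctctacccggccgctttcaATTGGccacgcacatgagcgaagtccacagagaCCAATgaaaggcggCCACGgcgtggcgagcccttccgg

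The element began at -126 from the TSS of Creld2 (on the opposite strand), at -44 in Syvn1 and at -98 in Pdia6. These 3 promoters, picked for the element, held no CRE core. Each had at least 1 further CCAAT besides that of the element.

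Housekeeping classes were represented by a few sites each on chromosomes 1 to 3. Of 8 sites at translation initiation genes (Eif), 3 were wide, or 3.16% of 95 wide sites (1.08 to 8.88%) against 0.645% of narrower (0.251 to 1.65%) and 0.619% of all 1292 sites there. They were the site of Eif4e2, a cap-binding protein (195 bp, 0.708 RPM, midpoint at -30.5 bp), of the kinase Eif2ak4, which senses amino acid shortage (150 bp, 0.519 RPM, -77 bp), and of Eif5b, which joins the ribosomal subunits (150 bp, 0.897 RPM), whose midpoint lay at -672 bp but at -129 bp from the TSS of Txndc9. Of 17 sites at cytosolic and mitochondrial ribosomal protein genes, 3 were wide (3.16%, 1.08 to 8.88%) against 9 narrower ones (1.45%, 0.766 to 2.74%) and 1.32% of all sites. Mrpl47 and the complex I gene Ndufb5 shared a site of 156 bp with 1.23 RPM, at -161 and -146 bp from their TSSs. The site of Mrpl30 (156 bp, 1.06 RPM, -110 bp) was closer to Mitd1, at -31 bp, and that of Rpl7a (162 bp, 0.425 RPM) lay at -7949 bp, at -44 bp from the TSS of Surf6. The site of Psmd5 (158 bp, 0.85 RPM, midpoint at -387 bp) was 1 of 5 at proteasome genes and the Ndufb5 site 1 of 4 at complex I genes. Each of these lists thus had 1.05% of wide sites (0.186 to 5.72%) and 0.161% of narrower ones (0.0285 to 0.908%), beside 0.387% and 0.310% of all sites.

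The widest sites of all were chr7:18540341-18540559 (218 bp, 0.685 RPM), whose calls met at their edges, and chr19:12863190-12863406 (216 bp, 0.708 RPM), neither with a listed gene here. Next came 3 sites of 214 bp, that of D230025D16Rik, that of Fnip2, a folliculin partner (0.897 RPM, midpoint at -193 bp), and that of Tmem189 (0.661 RPM, -89 bp). The highest were, after the pair given above, chr15:25928916-25929072 (156 bp, 2.43 RPM), chr12:113092566-113092769 (203 bp, 2.17 RPM) and Uap1. The chr12 site combined a distance of 94 bp between its calls with 92 reads in the fasted pool.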

How the data were processed

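CREB ChIP-seq libraries of 5 fasted and 5 re-fed livers were analysed from 2 final peak lists. To make them, the authors aligned reads with Eland to mm8, removed redundant reads per library, pooled each condition, called peaks with HOMER 3.0 (5% FDR) and kept peaks found in every pool of 4 livers. They then applied a minimum of 0.35 RPM to the height averaged over both conditions, so heights in the fasted pool can lie lower. The deposited heights are in RPM of the fasted pool in both lists, and both lists carry the same merged interval for a shared site. Single libraries of GR and CEBPB were not analysed here.

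Sites were joined by name with Python 3.11.15 and pandas 2.3.3. Gene names, extents and assigned sites came from the study's gene lists (mm8; all bound genes complete for chromosomes 1 to 3; the induced and repressed lists whole), with no measured value taken from them, and the study's height table served only to check the order of the peak names. Promoters were the first coding one RefSeq lists per gene (GRCm38.p6). Named genes were the 10 widest of the induced and of the repressed list, all genes of the gene lists with a wide site, the 5 widest and 5 highest sites and those at the thresholds. Genes with printed sequences outside that rule were chosen after their values were seen. The members and lists were chosen with earlier results of these data known. The deposited lists carry pooled values with no replicates, and heights per liver in the study's supplement were not used here, so no test was made. Intervals are 95% Wilson intervals, or order-statistic intervals of medians, covering counting error only. The scripts were tested on simulated data.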

Additional observations from a re-analysis of the deposited data

How the results depend on the processing

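No paired analysis was made and no library was left out, because the deposited lists analysed here hold values of pools and no column per animal. Heights per liver are given in the study's supplement and were not used. Of 55 recomputed values, 40 stayed within the 95% interval of the reported value or, for the count of sites, within 1.5 times of it. With a width minimum of 140 bp there were 802 wide sites and with 170 bp 180, and the median height of the narrower sites became 0.991 and 0.921 RPM. At 170 bp the share with a neighbour within 1000 bp was 16.7%. Under 1 RPM the median heights were 0.614 RPM (wide) and 0.685 RPM (narrower) and the median displacement -276, and with no height limit the narrower median was 1.06 RPM. The share with a neighbour was 7.68% within 500 bp and 6.06% with shared sites alone as neighbours, and the share near a TSS was 46.3% within 100 bp and 82.1% within 1000 bp, as these limits are nested. Chosen after seeing the data, the share of wide promoters with a CRE core was 29.4% under 0.7 RPM and 75.0% at 0.7 RPM or more. Autosomes alone moved no value out of its interval. The limits are the pooling, the height of 1 condition, the unknown direction of each shift, and gene positions for 3 chromosomes, with 23 to 58 promoters behind the main motif shares of wide sites. The study also reports fewer reads for the fasted than for the re-fed pool, and the part of this in the distances between calls was not tested.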

Other observations

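Genes that bring new proteins into the ER, or carry them out of it, were seen among the wide sites after their values were known. On chromosomes 1 to 3 a list of such genes drawn up then had 16 sites, of which 5 were wide (5.26% of 95 wide sites, 2.27 to 11.7%), 7 were narrower (1.13% of 620, 0.548 to 2.31%, beside 1.24% of all 1292 sites), 3 were fasted-only and 1 was re-fed-only. The wide ones were those of Ssr3 (176 bp, 0.425 RPM), of Srp9, a subunit of the signal recognition particle (175 bp, 0.567 RPM, midpoint at -11.5 bp from the TSS), of Tram1, a membrane protein beside the translocon (174 bp, 0.425 RPM, -136 bp), of Sec24d (173 bp, 0.732 RPM, -52.5 bp) and of Rpn2, a subunit of the oligosaccharyltransferase (155 bp, 0.567 RPM, -114.5 bp). Srp9 and Sec24d each had a further site within their first kilobase, at 509 bp (narrower, 0.614 RPM) and at 439 bp (fasted-only, 0.519 RPM). Because the list was drawn up from the wide sites, its counts are a description and no support for a difference. Copa, of the COPI coat, fell just outside the width limit with 149 bp and 0.732 RPM.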
